A study of Mus musculus with 12 samples.

Results

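The genes described here are 32 members of fibroblast growth factor (FGF) signalling and of the apical ectodermal ridge, the thickened strip of epithelium at the tip of the limb bud. They were listed by name and fall into 9 ligands, 5 receptors, 11 feedback and target genes and 7 ridge transcription factors. They were read among 18193 genes on 12 Affymetrix mouse expression arrays, each gene on its brightest probe set, meaning the one with the highest mean over the arrays among the probe sets that name 1 gene. All 32 had such a probe set, no filter on dim values was applied, and all 32 entered every comparison.

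The arrays held total RNA from limbs of C57BL/6 mouse embryos in 6 groups of 2. Embryos with both copies of Lmx1b (+/+, wild type, WT) and with none (-/-, knockout, KO) were sampled at 11.5, 12.5 and 13.5 days post coitum (dpc). The deletion is not described as restricted to any tissue, and no other allele or agent is named. At 11.5 and 12.5 dpc the limb bud was taken with its girdle, and at 13.5 dpc the limb beyond the elbow or knee was taken, which the tissue label calls the handplate. Each array read a pool of limbs, and the series text states that both pools of a group came from different embryos. It gives 6, 3 and 6 limbs per pool at the successive stages, while the extraction protocol gives 6 throughout, which could not be settled here. Forelimbs and hindlimbs were both collected, in shares that are not given. Each stage has a file prefix of its own in the labels, so the stage cannot be told apart from the file series or, for 13.5 dpc, from what was dissected. Within a stage the genotypes share all of these.

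FGF ligands from the ridge keep the mesenchyme beneath it growing, and mesenchymal FGFs in turn maintain the ridge, so that both tissues depend on each other during outgrowth. Ligands bind receptor tyrosine kinases together with heparan sulfate and activate the RAS-MAPK cascade, whose output includes ETS family transcription factors and a set of inhibitors, the Sprouty, SPRED and DUSP proteins, that damp the same cascade. Lmx1b, a LIM homeodomain transcription factor, is made in dorsal limb mesenchyme and gives it dorsal identity. The study asked, from its title, which genes depend on Lmx1b while the limb becomes dorsalized, and the values below give the answer these arrays allow for the FGF and ridge genes.

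Promoter windows from RefSeq (assembly GRCm38.p6), reaching from 250 bases before to 50 bases after each gene start, were available here for 22 of the 32 members, some with several starts. The letters GGAAGT, the core bound by ETS factors, GGGCGG, the GC box bound by Sp and Krüppel-like factors, and TAATTA, a core bound by LIM homeodomain factors, were searched on both strands and counted separately, and neighbouring matches can share up to 2 bases. GGGCGG was found in windows of 15 of the 22 members (68.2%), against 35.7% of all 32851 windows, GGAAGT in those of 4 members (18.2%, against 23.8%) and TAATTA in that of 1 member, Sp8 (4.55%, against 5.29%). Shares of members count genes, of which some have several windows, and shares of the background count windows. A match describes the letters and does not show binding. The 250 bases before the start are printed for 4 members, with every match in capitals on either strand. Fgf18 and Fgfr3 are shown because their arrays separated the genotypes at each stage, and Fgfrl1 and Spred2 because they fell and then rose again between stages in WT. Fgf18 lies at chr11:33147401-33147650 on the minus strand, and Fgfr3 (the first of its 2 windows in the table) at chr5:33721474-33721723, Fgfrl1 at chr5:108693979-108694228 and Spred2 at chr11:19924192-19924441 on the plus strand.
Fgf18: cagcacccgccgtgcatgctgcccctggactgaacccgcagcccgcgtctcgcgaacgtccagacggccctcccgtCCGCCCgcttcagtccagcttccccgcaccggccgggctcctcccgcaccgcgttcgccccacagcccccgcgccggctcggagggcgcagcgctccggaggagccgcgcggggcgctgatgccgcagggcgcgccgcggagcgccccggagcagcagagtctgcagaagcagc
Fgfr3: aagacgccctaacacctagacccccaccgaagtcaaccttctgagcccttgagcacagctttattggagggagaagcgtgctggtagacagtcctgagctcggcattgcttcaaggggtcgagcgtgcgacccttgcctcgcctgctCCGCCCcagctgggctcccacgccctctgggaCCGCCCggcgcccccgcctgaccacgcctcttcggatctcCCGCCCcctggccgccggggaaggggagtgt
Fgfrl1: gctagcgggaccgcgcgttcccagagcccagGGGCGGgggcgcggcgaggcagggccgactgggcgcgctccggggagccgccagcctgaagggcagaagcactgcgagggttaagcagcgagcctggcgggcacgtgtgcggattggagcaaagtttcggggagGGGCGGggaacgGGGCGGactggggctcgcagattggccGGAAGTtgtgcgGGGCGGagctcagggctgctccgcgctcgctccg
Spred2: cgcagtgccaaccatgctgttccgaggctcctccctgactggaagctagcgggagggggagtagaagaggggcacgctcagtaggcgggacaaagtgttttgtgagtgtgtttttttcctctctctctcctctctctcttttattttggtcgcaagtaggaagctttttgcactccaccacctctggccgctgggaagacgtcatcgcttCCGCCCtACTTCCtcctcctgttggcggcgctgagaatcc
In Fgf18 the capitals mark 1 GC box, in reverse complement. Those in Fgfr3 mark 3 GC boxes in reverse complement, those in Fgfrl1 4 GC boxes and 1 ETS core, and those in Spred2 a GC box and an ETS core side by side, both in reverse complement.

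Values are the deposited log2 expression values, on which the median of all probe sets and arrays was 6.28, and a difference of 1 is a 2-fold change. Differences are KO minus WT, or later minus earlier stage, and the value after ± is the standard error from the limma fit (2 arrays per group). A probe set near or below that median lies close to background, where changes are compressed, and levels of different genes cannot be compared because each probe set has its own response. For 23 members the mean of every group lay above that median. For 4 members, Fgf1, Fgf2, Fgf17 and Dlx6, no group mean did. The targeted gene, Lmx1b, lay between 5.60 and 8.88 in the KO arrays and between 9.28 and 10.27 in the WT arrays. Markers of limb mesenchyme (10 of 10 measured), surface ectoderm (18 of 18) and cartilage (12 of 12) were read in every group. 2 arrays stood apart from their replicates. KO 12.5 dpc replicate 2 differed from replicate 1 by 0.356 (root mean square over all genes) and KO 13.5 dpc replicate 2 by 0.267, against 0.140 to 0.237 in the other 4 groups. Hspa1a, a heat shock gene, lay at 9.36 in KO 12.5 dpc replicate 2 and at 4.80 to 5.71 in the 11 others. KO 13.5 dpc replicate 2 held the highest Lmx1b value of the KO arrays, and Meis1, a gene of the proximal limb, at 9.46 against 7.01 to 7.76 in the other arrays of that stage. Over the 32 members, the replicates differed by 0.537 in KO 12.5 dpc and 0.411 in KO 13.5 dpc, against 0.172 to 0.194 in the other 4 groups. In KO 13.5 dpc replicate 2, 30 of the 32 members (93.8%) were shifted from replicate 1 in the direction of the KO 11.5 dpc mean, by any distance. This compares with 80.9% of all genes. In KO 12.5 dpc replicate 2 it was 21 of 32 (65.6%), against 64.9%. The KO minus WT values below include these arrays, and where leaving out both moved a named difference by over 1.5 times or turned its sign, the value without them, from a fit on the other 10 arrays, follows in the same paragraph.

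The FGF and ridge genes showed no difference between KO and WT limbs that passed the test at any stage. Fgfr3, the receptor of cartilage precursors, was lower in both KO arrays than in both WT arrays at each stage, and Fgf18, a mesenchymal and skeletal ligand, and Etv4, an ETS factor induced by FGF signalling, were higher. With limma across all 18193 genes and Benjamini-Hochberg adjustment, 0 of the 32 members had an adjusted p under 0.05 for KO minus WT averaged over the 3 stages, where 0.203% of all genes passed. The count was also 0 at 11.5 dpc (0.0165% of all genes), 12.5 dpc (0.0385%) and 13.5 dpc (0.0275%). At an unadjusted p under 0.05 the members numbered 7 for the mean, 2 at 11.5 dpc, 6 at 12.5 dpc and 4 at 13.5 dpc, and all genes 1249, 298, 1981 and 1073. The median KO minus WT difference of the members was 0.05 for the mean over the stages, with 21 of 32 above 0, beside a median of -0.02 over all genes. At single stages the medians were 0.03, 0.05 and 0.02 for the members and -0.02, -0.02 and -0.0083 for all genes.

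Arrays of KO and WT did not overlap for 16 members at 11.5 dpc (10 higher in KO and 6 lower, 50% of the 32, against 39.5% of all genes). By direction the KO arrays were the higher ones for 31.2% of the members, against 12.8% of all genes, and the lower ones for 18.8%, against 26.8%. They did not overlap for 14 members at 12.5 dpc (10 higher and 4 lower, 43.8%, against 34.3% of all genes, made up of 15.0% higher and 19.3% lower) and for 15 at 13.5 dpc (8 higher and 7 lower, 46.9%, against 33.9%, made up of 11.6% higher and 22.3% lower). Both KO arrays lay above both WT arrays at every stage for 2 members, Fgf18 and Etv4 (6.25%, against 0.352% of all genes). Both lay below at every stage for 1 member, Fgfr3 (3.12%, against 1.31%). These shares describe a list of 32 genes and were not tested.

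**Figure D1:**
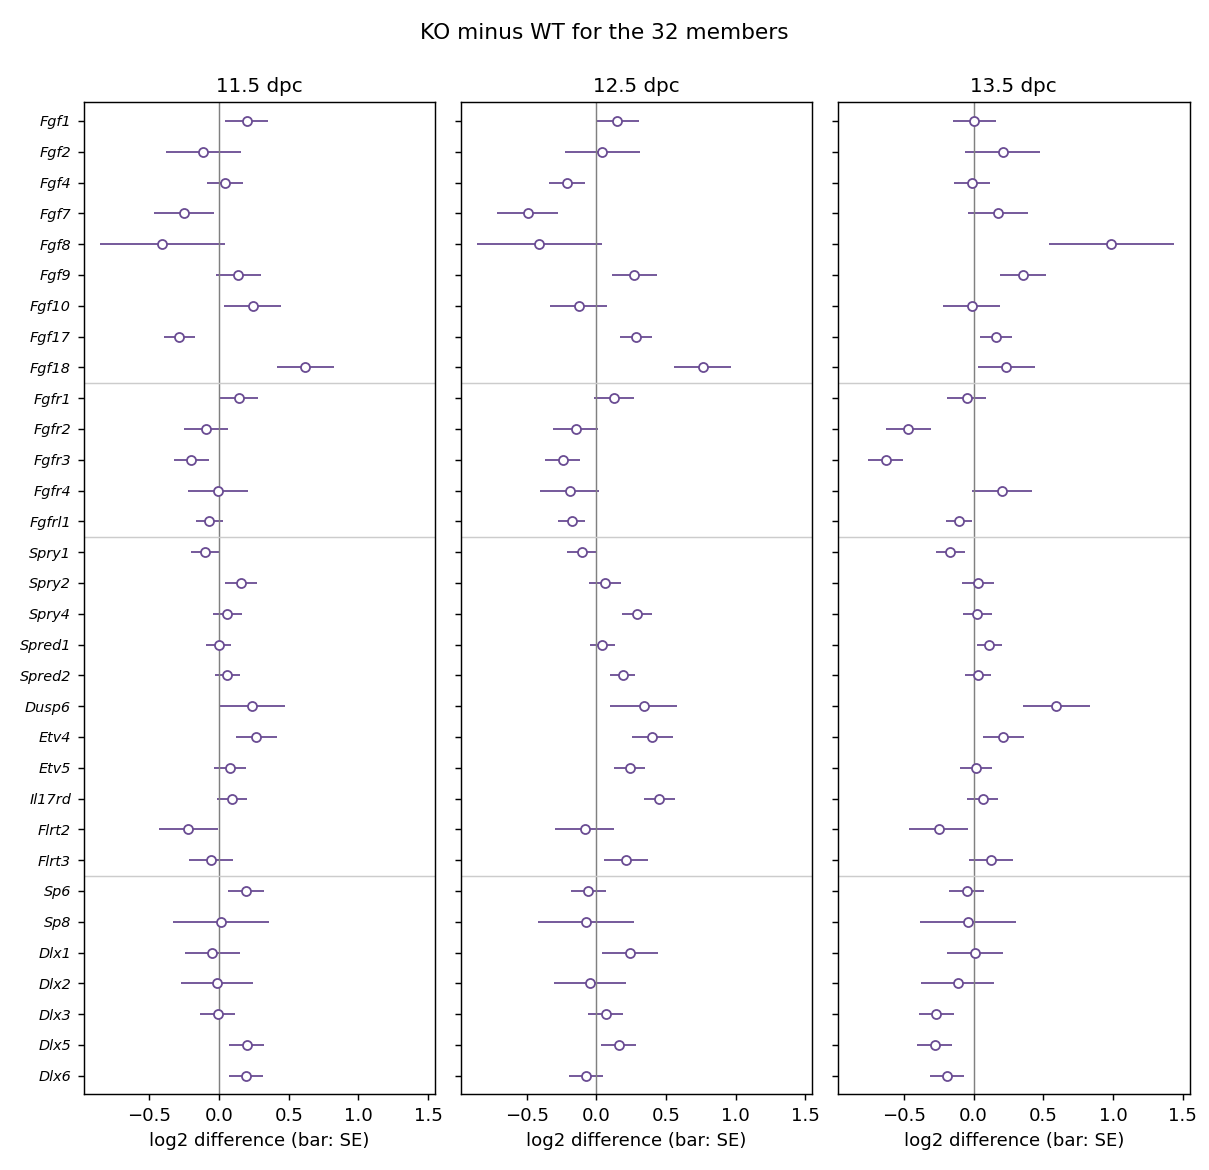
KO minus WT difference (log2) of the 32 members at each stage, from the limma fit. Points are differences and bars their standard errors, with members ordered as ligands, receptors, feedback genes and ridge factors between the grey lines; open points did not pass the adjusted p of 0.05, which holds for all of them. Fgf18 stands at 0.62, 0.76 and 0.24, Fgfr3 at -0.20, -0.24 and -0.63, and the widest bars belong to Fgf8.

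Among the ligands, 7 of 9 had a KO minus WT mean above 0 (6 without the arrays that stood apart) and none passed. Fgf18 lay at 7.91 and 7.48 in the WT arrays and at 8.04 and 8.58 in the KO arrays of 11.5 dpc, at 7.60 and 7.75 against 8.25 and 8.63 at 12.5 dpc, and at 7.47 and 7.31 against 7.52 and 7.74 at 13.5 dpc. The KO arrays were higher at each stage with no overlap. KO minus WT was 0.62 ± 0.20 at 11.5 dpc, 0.76 ± 0.20 at 12.5 dpc and 0.24 ± 0.20 at 13.5 dpc, and the mean over the stages was 0.54 ± 0.12 (limma adjusted p = 0.214). Without the 2 KO arrays that stood apart the mean was 0.44 (adjusted p = 0.272), and the 13.5 dpc difference 0.12. The array with the highest value at 12.5 dpc was KO replicate 2, one of those 2.

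Fgf8 lay at 7.99 and 8.38 in the WT arrays and at 7.85 and 7.71 in the KO arrays of 11.5 dpc, at 6.35 and 5.75 against 5.11 and 6.17 at 12.5 dpc, and at 5.73 and 5.62 against 5.90 and 7.43 at 13.5 dpc. This ligand is the main signal of the ridge along its whole length. KO and WT were separated at 11.5 dpc, with KO lower, overlapped at 12.5 dpc, and were separated at 13.5 dpc with KO higher, where KO replicate 2 lay 1.52 above replicate 1. The difference was -0.41 ± 0.45 at 11.5 dpc, -0.41 ± 0.45 at 12.5 dpc and 0.99 ± 0.45 at 13.5 dpc (limma adjusted p = 0.846). The mean over the stages was 0.06 ± 0.26, with a 95% interval from -0.52 to 0.63. When the arrays that stood apart were left out, Fgf8 differed by -0.94 ± 0.24 at 12.5 dpc (limma adjusted p = 0.108), 0.22 ± 0.24 at 13.5 dpc and -0.37 ± 0.13 as the mean over the stages (adjusted p = 0.34), so that the sign of its mean difference rested on those arrays.

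Fgf17 lay at 5.18 and 5.31 in the WT arrays and at 4.95 and 4.97 in the KO arrays of 11.5 dpc, at 4.82 and 4.78 against 5.12 and 5.05 at 12.5 dpc, and at 4.53 and 4.72 against 4.64 and 4.94 at 13.5 dpc. Fgf17, a ligand of the posterior ridge, was lower in both KO arrays at 11.5 dpc (-0.28 ± 0.11) and higher in both at 12.5 dpc (0.28 ± 0.11). Its 12 values lay between 4.53 and 5.31, all below the median of all probe sets. Fgf9 lay at 8.38 and 7.95 in the WT arrays and at 8.30 and 8.32 in the KO arrays of 11.5 dpc, at 7.60 and 7.51 against 7.91 and 7.75 at 12.5 dpc, and at 7.57 and 7.48 against 7.65 and 8.10 at 13.5 dpc. For Fgf9, a ligand made in ridge and surface epithelium, KO arrays were above WT arrays at 12.5 and 13.5 dpc and overlapped them at 11.5 dpc. The mean over the stages was 0.26 ± 0.09 (limma adjusted p = 0.624). Fgf4, another ligand of the posterior ridge, lay between 6.27 and 6.78 in the 12 arrays and differed between genotypes by 0.04 ± 0.13, -0.21 ± 0.13 and -0.01 ± 0.13 at the successive stages, the last of which was 0.18 without the arrays that stood apart.

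Fgf10 lay at 6.39 and 6.55 in the WT arrays and at 6.61 and 6.82 in the KO arrays of 11.5 dpc, at 6.14 and 6.16 against 5.70 and 6.35 at 12.5 dpc, and at 6.04 and 6.47 against 6.12 and 6.37 at 13.5 dpc. Fgf10, the mesenchymal ligand that induces and maintains the ridge, was higher in both KO arrays at 11.5 dpc and overlapped at the later stages. The mean over the stages was 0.03 ± 0.12, with a 95% interval from -0.23 to 0.30, and -0.12 ± 0.09 without the arrays that stood apart. Fgf7 lay at 6.08 and 6.26 in the WT arrays and at 5.90 and 5.93 in the KO arrays of 11.5 dpc, at 6.87 and 6.84 against 6.81 and 5.92 at 12.5 dpc, and at 6.02 and 6.07 against 6.22 and 6.22 at 13.5 dpc. For Fgf7, a mesenchymal ligand that signals to epithelium, KO was lower at 11.5 and 12.5 dpc and higher at 13.5 dpc, with a difference of -0.49 ± 0.22 at 12.5 dpc (limma adjusted p = 0.447). At that stage KO replicate 1 at 6.81 lay next to the WT arrays and replicate 2 at 5.92 apart from them, and without the arrays that stood apart the difference was -0.05 ± 0.10 (limma adjusted p = 0.841). The widely expressed ligands Fgf1 and Fgf2 lay between 4.28 and 5.16 and between 3.60 and 4.66, where a probe set is close to background, and their means over the stages differed by 0.12 ± 0.09 and 0.05 ± 0.16, the latter 0.23 without the arrays that stood apart.

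Of the 5 receptors, 4 had a KO minus WT difference below 0 at each single stage, though not the same 4 throughout, and none passed. Without the arrays that stood apart it was 3 of 5 at 12.5 and at 13.5 dpc. Fgfr3 lay at 8.55 and 8.50 in the WT arrays and at 8.30 and 8.35 in the KO arrays of 11.5 dpc, at 9.36 and 9.47 against 9.23 and 9.12 at 12.5 dpc, and at 9.67 and 9.62 against 9.22 and 8.81 at 13.5 dpc. Fgfr3, a tyrosine kinase receptor known for restraining growth of cartilage, was separated at every stage with KO lower. The difference was -0.20 ± 0.12 at 11.5 dpc, -0.24 ± 0.12 at 12.5 dpc and -0.63 ± 0.12 at 13.5 dpc (limma adjusted p = 0.249). The mean over the stages, -0.36 ± 0.07, had the smallest p of all members and an adjusted p of 0.152. Without the 2 KO arrays that stood apart it was -0.27 (adjusted p = 0.097), and at 13.5 dpc -0.43 (adjusted p = 0.221). It passed without KO 13.5 dpc replicate 1, both as the mean over the stages (-0.42, adjusted p = 0.0277) and at 13.5 dpc (-0.83, adjusted p = 0.0167), fits in which KO replicate 2 stands alone for its group. A dimmer probe set of Fgfr3 differed by -0.43 as the mean over the stages. The cartilage markers moved with Fgfr3. Their mean level was 8.97 and 9.24 in WT and 8.54 and 8.81 in KO at 11.5 dpc, 10.00 and 10.08 against 9.91 and 9.01 at 12.5 dpc, and 10.43 and 10.44 against 9.95 and 9.43 at 13.5 dpc, and the median KO minus WT difference of the 12 markers at 13.5 dpc was -0.82, with 0 past the threshold. At 12.5 and 13.5 dpc the lower KO level, 9.01 and 9.43, was that of replicate 2, the array that stood apart. The size of the cartilage difference therefore leans on those arrays, and the median without them is not given here. The part of the cartilage markers in the Fgfr3 values was not tested. In pools of whole limbs, fewer cells of a type and less RNA per cell cannot be told apart.

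Fgfr2 lay at 10.10 and 10.20 in the WT arrays and at 10.01 and 10.11 in the KO arrays of 11.5 dpc, at 10.90 and 10.93 against 10.91 and 10.62 at 12.5 dpc, and at 11.22 and 11.40 against 11.10 and 10.58 at 13.5 dpc. Fgfr2, whose epithelial form receives Fgf10 in the ridge and whose mesenchymal form is found in early cartilage condensations, overlapped between genotypes at 11.5 and 12.5 dpc and was lower in both KO arrays at 13.5 dpc. The difference there was -0.47 ± 0.16 (limma adjusted p = 0.731) and -0.21 without the arrays that stood apart, and the 2 forms were not told apart here. Fgfr1 lay at 10.72 and 10.86 in the WT arrays and at 10.84 and 11.02 in the KO arrays of 11.5 dpc, at 10.57 and 10.64 against 10.85 and 10.62 at 12.5 dpc, and at 11.17 and 11.35 against 11.40 and 11.02 at 13.5 dpc. Fgfr1, the main receptor of limb mesenchyme, overlapped at every stage, and its mean over the stages was 0.07 ± 0.08, and 0.17 without the arrays that stood apart. Fgfrl1 lay at 10.90 and 10.90 in the WT arrays and at 10.86 and 10.81 in the KO arrays of 11.5 dpc, at 10.48 and 10.63 against 10.45 and 10.31 at 12.5 dpc, and at 11.15 and 11.08 against 11.09 and 10.93 at 13.5 dpc. Fgfrl1, a receptor that lacks the kinase domain, was lower in both KO arrays at 11.5 and 12.5 dpc, with differences of -0.07 ± 0.10 and -0.18 ± 0.10, the latter -0.10 without those arrays. Fgfr4, the receptor linked to the muscle lineage in the limb, lay between 6.48 and 7.52 and had a mean difference of 0.00091 ± 0.12, and 0.10 without them.

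Of the 11 feedback and target genes, 9 had a KO minus WT difference above 0 as the mean over the stages, at 12.5 dpc and at 13.5 dpc, and 7 did at 11.5 dpc. Their median difference was 0.06, 0.21 and 0.03 at the successive stages, and none passed. Without the arrays that stood apart 9 were above 0 for the mean, 10 at 12.5 dpc and 3 at 13.5 dpc, where the median was -0.04, so that the direction at 13.5 dpc rested on KO replicate 2 of that stage. Etv4 lay at 9.04 and 8.95 in the WT arrays and at 9.21 and 9.31 in the KO arrays of 11.5 dpc, at 7.96 and 8.10 against 8.20 and 8.66 at 12.5 dpc, and at 8.30 and 8.35 against 8.40 and 8.68 at 13.5 dpc. The KO arrays of Etv4 were the higher ones at each stage, by 0.27 ± 0.15, 0.40 ± 0.15 and 0.21 ± 0.15, and the mean over the stages was 0.29 ± 0.09 (limma adjusted p = 0.459). Without the arrays that stood apart it was 0.17 (adjusted p = 0.299), and the differences at 12.5 and 13.5 dpc were 0.17 and 0.07. Etv5 lay at 10.39 and 10.31 in the WT arrays and at 10.38 and 10.47 in the KO arrays of 11.5 dpc, at 10.03 and 10.05 against 10.18 and 10.37 at 12.5 dpc, and at 10.01 and 9.78 against 9.80 and 10.02 at 13.5 dpc. Etv5, the other ETS factor of the pair, was separated at 12.5 dpc alone, with KO higher by 0.24 ± 0.11, or 0.15 without those arrays.

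Dusp6 lay at 11.58 and 11.43 in the WT arrays and at 11.75 and 11.73 in the KO arrays of 11.5 dpc, at 11.28 and 11.05 against 11.20 and 11.82 at 12.5 dpc, and at 10.12 and 10.08 against 10.31 and 11.08 at 13.5 dpc. Dusp6, the ERK phosphatase that reads out FGF signalling from the ridge, was higher in both KO arrays at 11.5 and 13.5 dpc and overlapped at 12.5 dpc. KO replicate 2 was the highest array of its stage at 12.5 and 13.5 dpc. The difference was 0.59 ± 0.24 at 13.5 dpc (limma adjusted p = 0.818), and 0.21 without the arrays that stood apart. Il17rd lay at 10.09 and 10.07 in the WT arrays and at 10.20 and 10.14 in the KO arrays of 11.5 dpc, at 10.04 and 10.00 against 10.39 and 10.55 at 12.5 dpc, and at 9.86 and 9.74 against 9.72 and 10.01 at 13.5 dpc. Il17rd, also called Sef, a membrane inhibitor of the FGF cascade, was higher in both KO arrays at 11.5 and 12.5 dpc and overlapped at 13.5 dpc. The difference at 12.5 dpc, 0.45 ± 0.11, had the smallest p of the members at that stage (limma adjusted p = 0.193), and was 0.37 (adjusted p = 0.0975) without the arrays that stood apart. The other probe set of Il17rd, close to the median of all values, differed by -0.17 there.

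Spry4 lay at 9.09 and 9.11 in the WT arrays and at 9.06 and 9.27 in the KO arrays of 11.5 dpc, at 8.19 and 8.20 against 8.53 and 8.44 at 12.5 dpc, and at 8.70 and 8.91 against 8.76 and 8.89 at 13.5 dpc. Spry4, a Sprouty inhibitor, was separated at 12.5 dpc, with KO higher by 0.29 ± 0.11 (limma adjusted p = 0.356). Spred2 lay at 10.62 and 10.64 in the WT arrays and at 10.65 and 10.73 in the KO arrays of 11.5 dpc, at 10.21 and 10.12 against 10.31 and 10.39 at 12.5 dpc, and at 10.61 and 10.51 against 10.52 and 10.67 at 13.5 dpc. Spred2, an inhibitor that acts on RAS-RAF activation, was higher in both KO arrays at 11.5 and 12.5 dpc, by 0.06 ± 0.09 and 0.19 ± 0.09. Spred1 lay at 10.54 and 10.52 in the WT arrays and at 10.52 and 10.53 in the KO arrays of 11.5 dpc, at 10.89 and 10.80 against 10.95 and 10.82 at 12.5 dpc, and at 10.45 and 10.34 against 10.50 and 10.52 at 13.5 dpc. Spred1, its relative, differed by 0.05 ± 0.05 as the mean over the stages. Spry1 and Spry2, the other Sprouty inhibitors, had mean differences of -0.12 ± 0.06 and 0.08 ± 0.07 and lay between 9.80 and 10.35 and between 9.43 and 9.93. Flrt2 and Flrt3, membrane proteins of which Flrt3 is induced by FGF and binds FGF receptors, had mean differences of -0.18 ± 0.12 and 0.09 ± 0.09, and in KO 12.5 dpc replicate 2 Flrt2 lay at 10.55 against 11.35 in replicate 1. Without the arrays that stood apart the mean differences of Spry2, Flrt2 and Flrt3 were 0.03, -0.01 and 0.06.

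**Figure D2:**
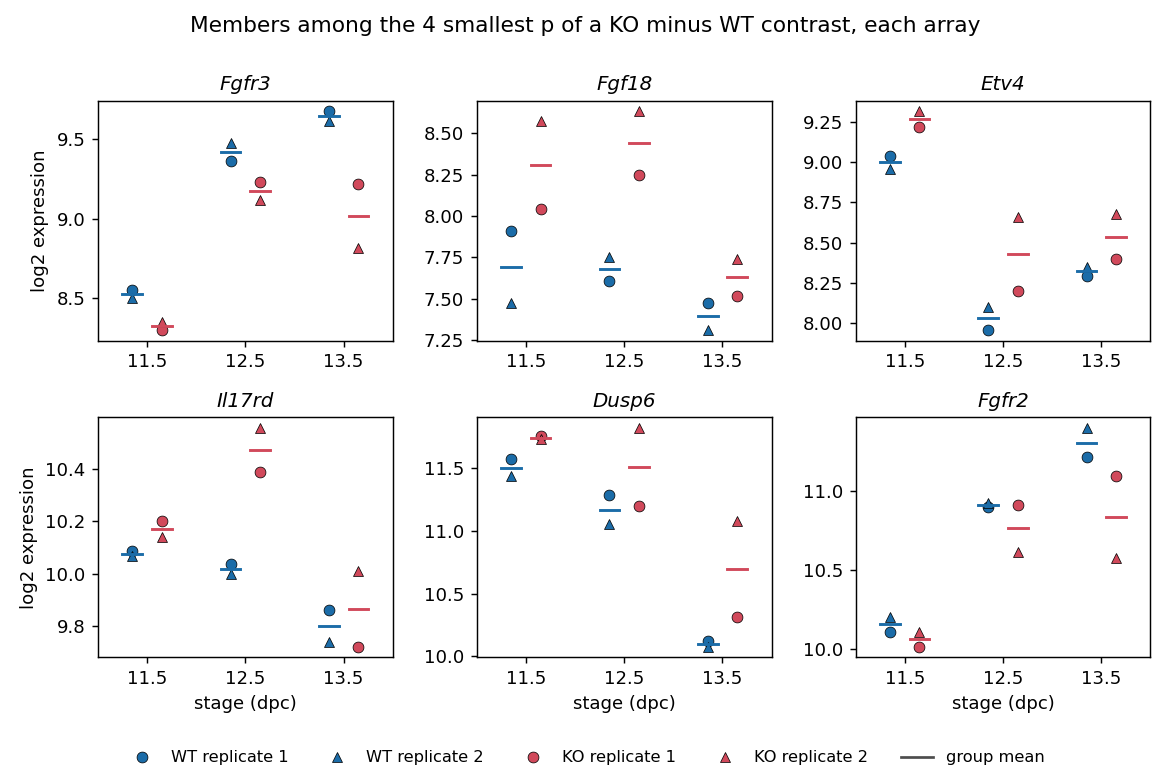
Log2 expression of 6 members in each array by stage, with circles for replicate 1, triangles for replicate 2 and lines for group means; each panel has its own vertical scale. Fgfr3 is lower, and Fgf18 and Etv4 are higher, in both KO arrays at every stage, while Dusp6 reaches 11.82 and 11.08 in KO replicate 2 at 12.5 and 13.5 dpc.

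Of the 7 ridge transcription factors, 3 had a mean difference above 0 and 4 below (2 and 5 without the arrays that stood apart), and none passed. At single stages without those arrays, 4 of 7 were above 0 at 11.5 dpc, 3 at 12.5 dpc and 0 at 13.5 dpc, where the median was -0.19. The differences over the stages ran from -0.07 ± 0.07 for Dlx3 to 0.07 ± 0.12 for Dlx1, a narrow range that rested on the KO arrays that stood apart. Without those arrays they ran from -0.32 ± 0.10 for Sp8 to 0.05 ± 0.08 for Dlx5, with Dlx2 at -0.25 ± 0.10, Dlx1 at -0.12 ± 0.05, Sp6 at -0.05 ± 0.06 and Dlx3 at -0.03 ± 0.07, and none passed (smallest limma adjusted p = 0.288, for Sp8). Dlx5 lay at 9.28 and 9.12 in the WT arrays and at 9.29 and 9.50 in the KO arrays of 11.5 dpc, at 9.21 and 8.98 against 9.35 and 9.16 at 12.5 dpc, and at 9.07 and 8.86 against 8.67 and 8.71 at 13.5 dpc. Dlx5, a distal-less homeobox gene of ridge, mesenchyme and skeletal precursors, was higher in both KO arrays at 11.5 dpc and lower in both at 13.5 dpc, where the difference was -0.28 ± 0.12 (limma adjusted p = 0.844). Dlx6 lay at 5.54 and 5.62 in the WT arrays and at 5.68 and 5.86 in the KO arrays of 11.5 dpc, at 5.66 and 5.61 against 5.73 and 5.39 at 12.5 dpc, and at 5.64 and 5.49 against 5.40 and 5.34 at 13.5 dpc. Dlx6, its genomic neighbour, had the same signs, with 0.19 ± 0.12 at 11.5 dpc and -0.19 ± 0.12 at 13.5 dpc, on a probe set whose values all lay below the median of all probe sets.

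Sp6 lay at 7.64 and 7.42 in the WT arrays and at 7.74 and 7.71 in the KO arrays of 11.5 dpc, at 6.73 and 6.88 against 6.58 and 6.92 at 12.5 dpc, and at 7.36 and 7.35 against 7.24 and 7.38 at 13.5 dpc. Sp6, a zinc finger factor of the ridge epithelium, overlapped at 12.5 and 13.5 dpc. Sp8 lay at 6.42 and 6.31 in the WT arrays and at 6.47 and 6.30 in the KO arrays of 11.5 dpc, at 5.57 and 5.08 against 4.57 and 5.94 at 12.5 dpc, and at 6.23 and 6.23 against 6.00 and 6.38 at 13.5 dpc. Sp8, its relative that is required for Fgf8 in the ridge, overlapped at all 3 stages and had the largest gap between replicates, 1.37 in KO 12.5 dpc. The 95% interval of its mean difference ran from -0.47 to 0.41, and that of Sp6 from -0.13 to 0.19. Sp8 differed by -0.76 ± 0.18 at 12.5 dpc without the arrays that stood apart (limma adjusted p = 0.0973), against -0.07 ± 0.34 with them, and by -0.32 ± 0.10 as the mean over the stages.

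Dlx1 lay at 6.90 and 6.74 in the WT arrays and at 6.75 and 6.81 in the KO arrays of 11.5 dpc, at 6.00 and 5.94 against 5.91 and 6.51 at 12.5 dpc, and at 6.16 and 6.09 against 5.86 and 6.42 at 13.5 dpc. Dlx2 lay at 7.75 and 7.52 in the WT arrays and at 7.51 and 7.73 in the KO arrays of 11.5 dpc, at 6.70 and 7.02 against 6.33 and 7.31 at 12.5 dpc, and at 7.77 and 7.52 against 7.46 and 7.60 at 13.5 dpc. Dlx1 and Dlx2, homeobox genes of the ridge, overlapped at every stage, with KO replicate 2 the higher KO array at 12.5 and 13.5 dpc for both. Dlx3 lay at 7.49 and 7.49 in the WT arrays and at 7.33 and 7.63 in the KO arrays of 11.5 dpc, at 6.58 and 6.54 against 6.59 and 6.67 at 12.5 dpc, and at 7.93 and 7.97 against 7.85 and 7.52 at 13.5 dpc. Dlx3, a homeobox gene of ridge and surface epithelium, was higher in both KO arrays at 12.5 dpc and lower in both at 13.5 dpc, with differences of 0.07 ± 0.13 and -0.27 ± 0.13, or 0.03 and -0.10 without the arrays that stood apart. Dlx2 differed by -0.04 ± 0.26 at 12.5 dpc with those arrays and by -0.53 ± 0.18 without them.

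Whether the KO effect itself differed between stages was tested as a difference of differences, and 0 members passed in any of the 3 comparisons, as did 0% of all genes. At an unadjusted p under 0.05 there were 2 members for 12.5 against 11.5 dpc, 2 for 13.5 against 12.5 dpc and 3 for 13.5 against 11.5 dpc, and 1132, 1546 and 377 genes of all. Fgf17 had the smallest p between 11.5 and 12.5 dpc, with a KO effect that was 0.57 ± 0.16 higher at the later stage (limma adjusted p = 0.686), followed by Il17rd (0.36 ± 0.16), Spry4 (0.23 ± 0.15) and Dlx6 (-0.26 ± 0.17). Between 12.5 and 13.5 dpc the 4 members were Dlx5 (-0.44 ± 0.18, adjusted p = 0.547), Il17rd (-0.39 ± 0.16), Fgf8 (1.40 ± 0.63) and Fgfr3 (-0.39 ± 0.18). Between 11.5 and 13.5 dpc they were Fgf17 (0.44 ± 0.16, adjusted p = 1.00), Dlx5 (-0.48 ± 0.18), Fgfr3 (-0.43 ± 0.18) and Dlx6 (-0.38 ± 0.17). Without the arrays that stood apart the values were -0.09 for Dlx6 between 11.5 and 12.5 dpc, and -0.24 and -0.23 for Fgfr3. These comparisons share arrays pairwise. Fgf8, Fgf7, Fgf17, Dlx3, Dlx5 and Dlx6 had KO arrays all above WT at 1 stage and all below at another, and the size of that reversal did not pass for any of them.

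The KO minus WT calls depended on single arrays. Without KO 12.5 dpc replicate 1, which leaves the array with high Hspa1a alone in its group, 4 members passed for the mean over the stages, namely Fgf7 (-0.34, limma adjusted p = 0.0129), Etv4 (0.37, adjusted p = 0.0224), Fgf18 (0.60, adjusted p = 0.0282) and Fgfr3 (-0.38, adjusted p = 0.0364). In the same fit 3 passed at 12.5 dpc, namely Fgf7 (-0.94, adjusted p = 0.00262), Fgfr4 (-0.61, adjusted p = 0.0385) and Etv4 (0.63, adjusted p = 0.0389), and the KO effect on Fgf7 differed between 12.5 and 13.5 dpc (1.11, adjusted p = 0.0127). Without both arrays that stood apart, 0 members passed in any of these 7 comparisons, and the medians of the members were 0.04 for the mean, and 0.03, 0.10 and -0.04 at the successive stages. Leaving them out turned the sign of 6 of the 32 differences for the mean (Fgf4, Fgf8, Fgf10, Sp6, Dlx1 and Dlx6), 6 at 12.5 dpc and 9 at 13.5 dpc, of which the largest with the arrays included was 0.24 in size (Dlx1 at 12.5 dpc).

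Between stages the FGF and ridge genes did change, and in WT limbs from 11.5 to 12.5 dpc most of the changes were falls. Fgf8 fell most, together with the targets Etv4 and Spry4 and the ridge factors Dlx3, Dlx1 and Sp6, while the receptors Fgfr3 and Fgfr2 rose. Of the 32 members, 10 fell, where 13.1% of all genes did (31.2% of the members), and 4 rose, where 6.67% of all genes did (12.5% of the members). Fgf8 fell by 2.13 ± 0.45 (limma adjusted p = 0.0102), as did the ridge ligands Fgf9 (-0.61 ± 0.16, adjusted p = 0.0271) and Fgf17 (-0.44 ± 0.11, adjusted p = 0.0236). The other probe set of Fgf9, at a mean level of 7.74, moved by 0.08, and Fgf9 did not pass with the mean of its probe sets. The mesenchymal ligand Fgf7 rose by 0.69 ± 0.22 (adjusted p = 0.0487), a call that held under 7 of 21 alternatives in processing. Among the receptors, Fgfr3 rose by 0.89 ± 0.12 (adjusted p = 0.00199) and Fgfr2 by 0.76 ± 0.16 (adjusted p = 0.0106), and Fgfrl1 fell by 0.34 ± 0.10 (adjusted p = 0.0322). Fgfr1 did not pass on its brightest probe set (-0.18 ± 0.14). Its other sets, at mean levels of 10.52 and 7.76, moved by -0.40 and -0.69, both past the threshold. In KO these sets moved by 0.02 and -0.47 over this interval, the latter past the threshold.

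Of the feedback and target genes, Etv4 and Spry4 fell in WT over this interval by 0.97 ± 0.15 and 0.91 ± 0.11 (limma adjusted p = 0.00274 and 0.00125), Spred2 changed by -0.47 ± 0.09 (adjusted p = 0.00782) and Spred1 by 0.31 ± 0.09 (adjusted p = 0.0313). Dusp6, Etv5, Il17rd, Spry1, Spry2, Flrt2 and Flrt3 did not pass on their brightest probe sets. Of the ridge factors, Dlx3 fell by 0.93 ± 0.13 (adjusted p = 0.00183), Dlx1 by 0.86 ± 0.20 (adjusted p = 0.0156) and Sp6 by 0.72 ± 0.13 (adjusted p = 0.00481). Sp8 and Dlx2 lay at -1.04 ± 0.34 and -0.77 ± 0.26 and did not pass (adjusted p = 0.058 and 0.0608), and Dlx5 and Dlx6 at -0.10 ± 0.12 and 0.06 ± 0.12. The 14 calls numbered 7 and 6 without WT 11.5 dpc replicate 1 or 2, and 8 without WT 12.5 dpc replicate 1 or replicate 2. Fgfr3, Spry4, Etv4, Sp6 and Dlx3 passed whichever of the 12 arrays was left out. With the mean of a gene's probe sets, Fgfr3 and Etv4 did not pass (limma adjusted p = 0.0644 and 0.0633).

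In KO limbs Fgf8, Etv4, Spry4, Sp6 and Dlx3 fell and Fgfr3 and Fgfr2 rose over the same interval, in arrays that the WT comparison did not use, although all arrays share 1 estimate of the spread. Of the 32 members, 9 fell, against 10.6% of all genes, and 3 rose, against 6.22%. Fgf8 fell by 2.13 ± 0.45 (limma adjusted p = 0.0118), Sp6 by 0.97 ± 0.13 (adjusted p = 0.00193), Dlx3 by 0.85 ± 0.13 (adjusted p = 0.00288) and Etv4 by 0.83 ± 0.15 (adjusted p = 0.00605). Spry4 (-0.68 ± 0.11), Fgfrl1 (-0.45 ± 0.10) and Spred2 (-0.34 ± 0.09) fell as well, and Fgfr3 (0.85 ± 0.12), Fgfr2 (0.71 ± 0.16) and Spred1 (0.36 ± 0.09) rose. Those 10 members passed with the same sign in both genotypes, which is 10 of the 14 WT calls and 10 of the 12 KO calls, and none passed with opposite signs. The matching overlap over all genes is not given here, so these counts are not read as a trait of the members. Fgf10 (-0.69 ± 0.20, adjusted p = 0.0438) and Sp8 (-1.13 ± 0.34, adjusted p = 0.0492, or -1.81 without the arrays that stood apart) passed in KO and not in WT, and Fgf7, Fgf9, Fgf17 and Dlx1 in WT and not in KO. The test of the difference, given above, passed for none of them. The KO calls of Fgf10 and Sp8 held under 10 and 5 of 21 alternatives. The 12 calls numbered 5 and 3 without KO 11.5 dpc replicate 1 or 2, 8 without KO 12.5 dpc replicate 1, and 17 without both arrays that stood apart. They numbered 7 with the mean of a gene's probe sets, where Fgfr3 moved by 0.19 and did not pass. They numbered 0 when the 4 arrays compared were fitted alone, with 2 residual degrees of freedom, so that every KO call over this interval needs the spread pooled with the other groups.

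**Figure D3:**
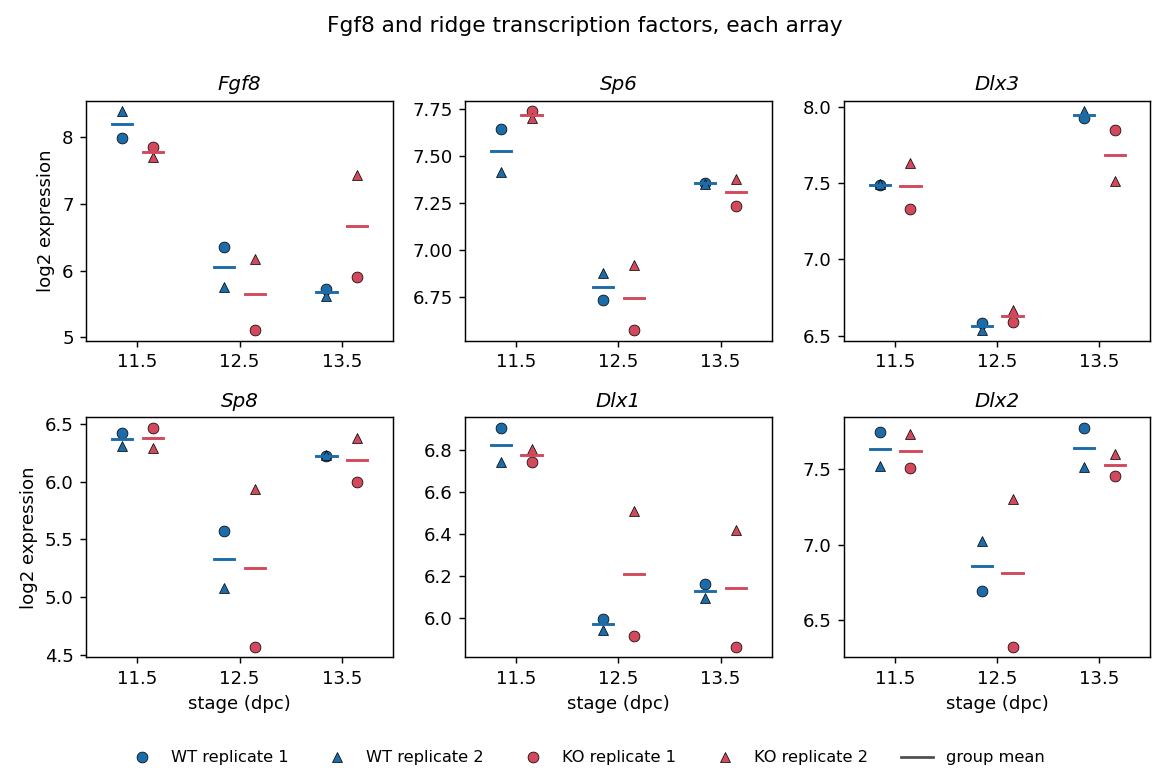
Log2 expression of Fgf8 and 5 ridge transcription factors in each array by stage, with circles for replicate 1, triangles for replicate 2 and lines for group means; each panel has its own vertical scale. All 6 are lower at 12.5 than at 11.5 dpc in every array, and Fgf8 stays low at 13.5 dpc except for KO replicate 2 at 7.43.

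From 12.5 to 13.5 dpc in WT limbs, the dissected tissue changed from limb bud with girdle to distal limb, and the changes in the members turned mostly upward. Dlx3, Sp6 and Dlx2 rose, as did Spry4, Fgfr1 and Fgfrl1, while Dusp6 fell. Of the 32 members, 8 rose, against 14.5% of all genes (25.0% of the members), and 3 fell, against 10.8% (9.38% of the members). Dlx3 rose by 1.39 ± 0.13 (limma adjusted p = 2.90e-04), Dlx2 by 0.78 ± 0.26 (adjusted p = 0.0496) and Sp6 by 0.55 ± 0.13 (adjusted p = 0.0116). The Dlx2 call held under 8 of 21 alternatives. Fgfr1 rose by 0.65 ± 0.14 (adjusted p = 0.00861), Fgfrl1 by 0.56 ± 0.10 (adjusted p = 0.00327) and the dim Fgf1 by 0.53 ± 0.16 (adjusted p = 0.0313). Fgf1 lay at 4.67 and 4.68 in the WT arrays and at 5.00 and 4.74 in the KO arrays of 11.5 dpc, at 4.28 and 4.57 against 4.68 and 4.47 at 12.5 dpc, and at 4.76 and 5.16 against 5.04 and 4.89 at 13.5 dpc. The WT arrays of Fgf1 at 12.5 and 13.5 dpc did not overlap. Its other probe sets, at mean levels of 4.48 and 4.21, moved by -0.07 and -0.12 in WT over this interval. With the mean of its probe sets the Fgf1 rise was 0.12 and did not pass (limma adjusted p = 0.397).

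Among the feedback genes in WT, Spry4 rose by 0.61 ± 0.11 (limma adjusted p = 0.00342) and Spred2 by 0.40 ± 0.09 (adjusted p = 0.0118), and Spred1 fell by 0.45 ± 0.09 (adjusted p = 0.00546). Dusp6 fell by 1.07 ± 0.24 (adjusted p = 0.0102), and the ligand Fgf7 by 0.81 ± 0.22 (adjusted p = 0.0213). Fgf8 was at -0.38 ± 0.45 and did not pass (adjusted p = 0.574), and its level in WT at 13.5 dpc, 5.73 and 5.62, was below that at 11.5 dpc in both arrays. The 11 calls numbered 6 without WT 12.5 dpc replicate 1, 6 and 4 without WT 13.5 dpc replicate 1 or 2, and 19 without both KO arrays that stood apart, which takes their spread out of the error. Fgfrl1, Spry4 and Dlx3 passed whichever array was left out. With the mean of a gene's probe sets the rise of Spry4 was 0.05 and did not pass (limma adjusted p = 0.767).

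In KO limbs over the same interval 5 members rose, against 10.4% of all genes, and 6 fell, against 8.22%. Dlx3 rose by 1.05 ± 0.13 (limma adjusted p = 0.00139), Fgfrl1 by 0.63 ± 0.10 (adjusted p = 0.00311), Sp6 by 0.56 ± 0.13 (adjusted p = 0.0152), Fgfr1 by 0.48 ± 0.14 (adjusted p = 0.0408) and Spry4 by 0.34 ± 0.11 (adjusted p = 0.0483). The calls of Fgfr1 and Spry4 held under 8 and 4 of 21 alternatives. Il17rd fell by 0.60 ± 0.11 (adjusted p = 0.00641), Dlx5 by 0.56 ± 0.12 (adjusted p = 0.0137) and Fgf18 by 0.81 ± 0.20 (adjusted p = 0.0217). Dusp6 (-0.81 ± 0.24), Spred1 (-0.38 ± 0.09) and Etv5 (-0.37 ± 0.11, adjusted p = 0.0492) fell too. The other probe sets of Etv5, at mean levels of 8.97 and 8.82, moved by 0.31 and 0.03, and its call held under 4 of 21 alternatives. The Dusp6 call held under 9 of 21. The other probe set of Il17rd, at a mean level of 6.67, moved by 0.65. With the mean of its probe sets Il17rd moved by 0.02 and did not pass. The 7 members Fgfr1, Fgfrl1, Spry4, Spred1, Dusp6, Sp6 and Dlx3 passed with the same sign in both genotypes, 7 of the 11 calls in each, and none with opposite signs. For this interval too the overlap over all genes is not given. The 11 KO calls numbered 7 without any 1 array of 11.5 dpc or either WT array of 13.5 dpc, 5 without KO 13.5 dpc replicate 1, and 14 without both arrays that stood apart, 8 of them among the 11. They numbered 7 with the mean of a gene's probe sets, 2 with array quality weights and 0 when the 4 arrays compared were fitted alone. Without KO 13.5 dpc replicate 1, Fgf8 passed at 1.78 (adjusted p = 0.033), where KO replicate 2 at 7.43 alone stood for the group.

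**Figure D4:**
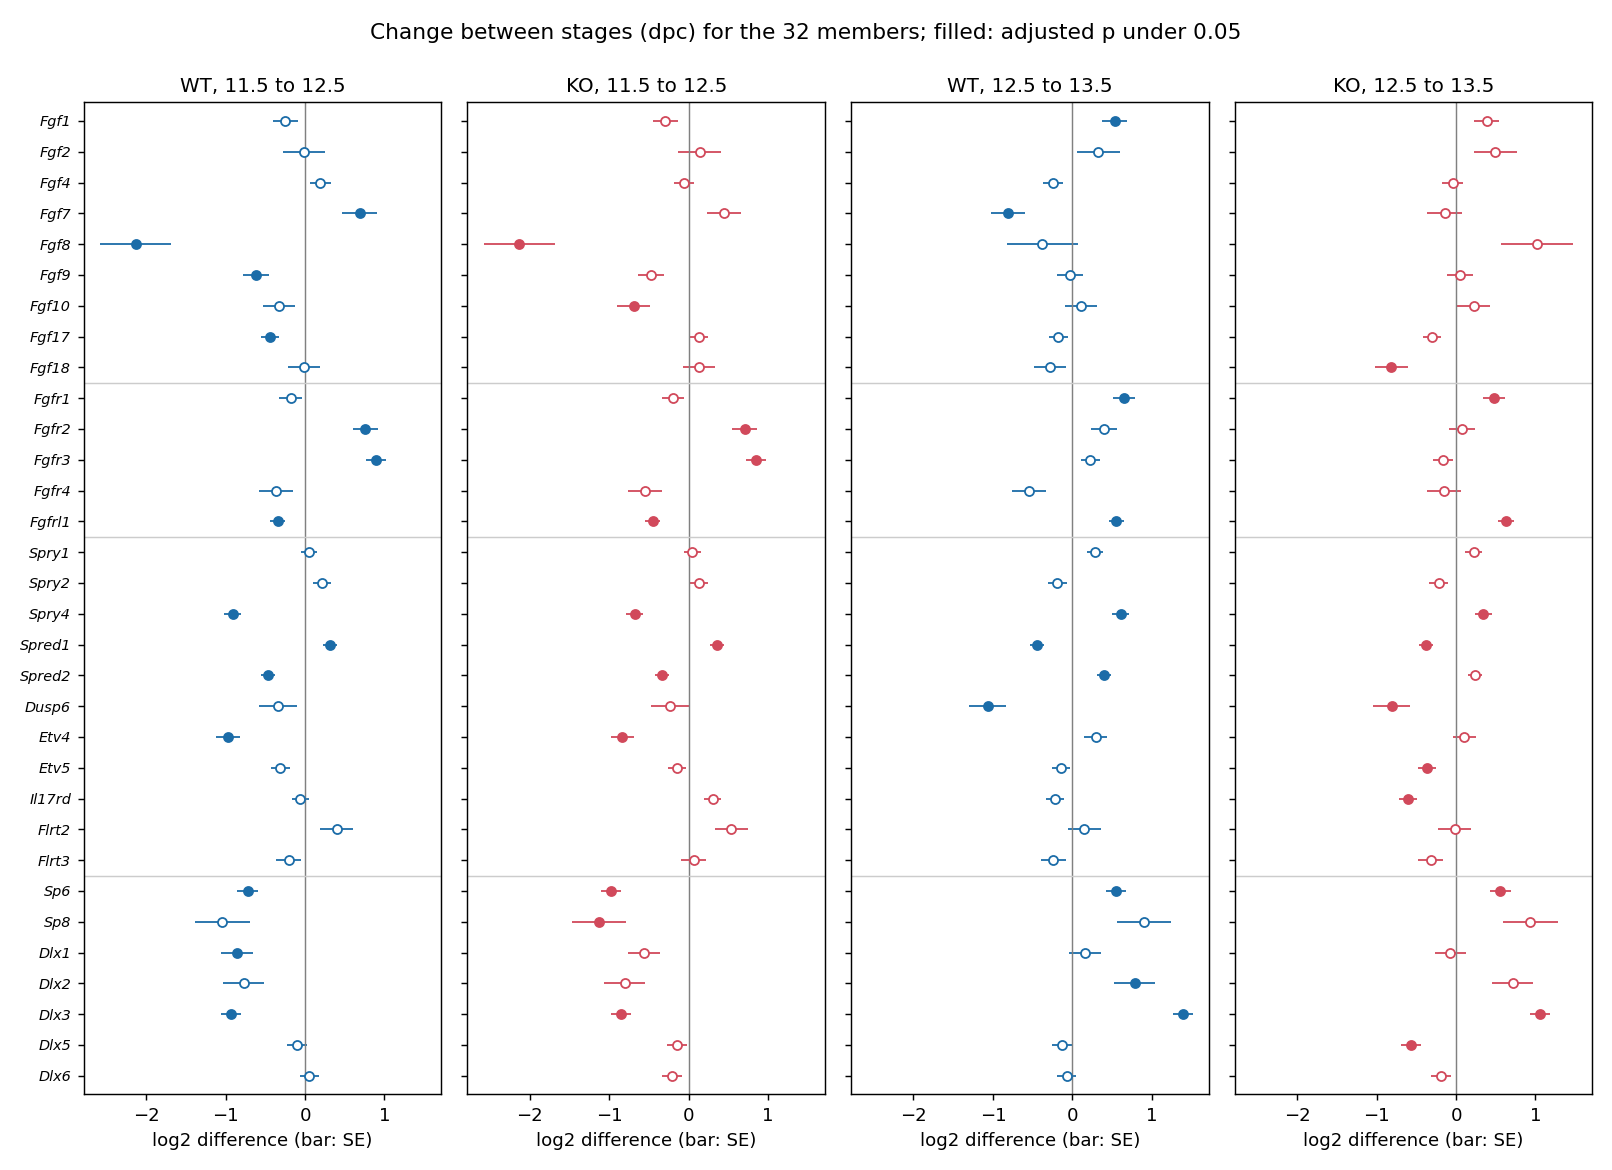
Change between consecutive stages (log2) of the 32 members in WT (blue) and KO (red), from the limma fit. Bars are standard errors and filled points had an adjusted p under 0.05; Fgf8 lies at -2.13 in both genotypes over the earlier interval, and Dlx3 at 1.39 and 1.05 over the later one.

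In WT, 5 members fell and then rose, namely Fgfrl1, Spry4, Spred2, Sp6 and Dlx3, and in KO these were Fgfrl1, Spry4, Sp6 and Dlx3. Fgf7 and Spred1 rose and then fell in WT, and Spred1 did so in KO. The intervals share the 12.5 dpc arrays, so a low or high value in those arrays enters both with opposite sign. On the brightest probe set, no interval passed in either genotype for 8 members, Fgf2, Fgf4, Fgfr4, Spry1, Spry2, Flrt2, Flrt3 and Dlx6. Dimmer probe sets of Flrt2, Flrt3 and Fgfr4 did pass. A Flrt2 set at a mean level of 10.48 moved by 0.86 in WT and 0.83 in KO over the earlier interval. Over the later one a Flrt3 set at 9.45 moved by -0.63 in WT and -0.67 in KO, and an Fgfr4 set at 6.92 by -0.54 in WT. How often all genes showed these sequences of calls is not given here. The surface ectoderm markers moved with the ridge factors Sp6 and Dlx3. Their mean level lay between 8.54 and 8.71 in the 4 arrays of 11.5 dpc, between 7.65 and 8.12 at 12.5 dpc and between 8.63 and 8.89 at 13.5 dpc. In WT 12 of the 18 markers fell over the earlier interval, with a median of -0.69, against 13.1% of all genes. Over the later one 15 rose, with a median of 1.06, against 14.5%. In KO 8 fell and 9 rose, against 10.6% and 10.4% of all genes. Fgf8, a ridge gene, was at -0.38 ± 0.45 in WT over the later interval. The skeletal muscle markers stood at 8.73 to 8.82 at 11.5 dpc, 8.79 to 10.00 at 12.5 dpc and 8.13 to 8.74 at 13.5 dpc. The part of the make-up of the pools in the stage changes was not tested.

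**Figure D5:**
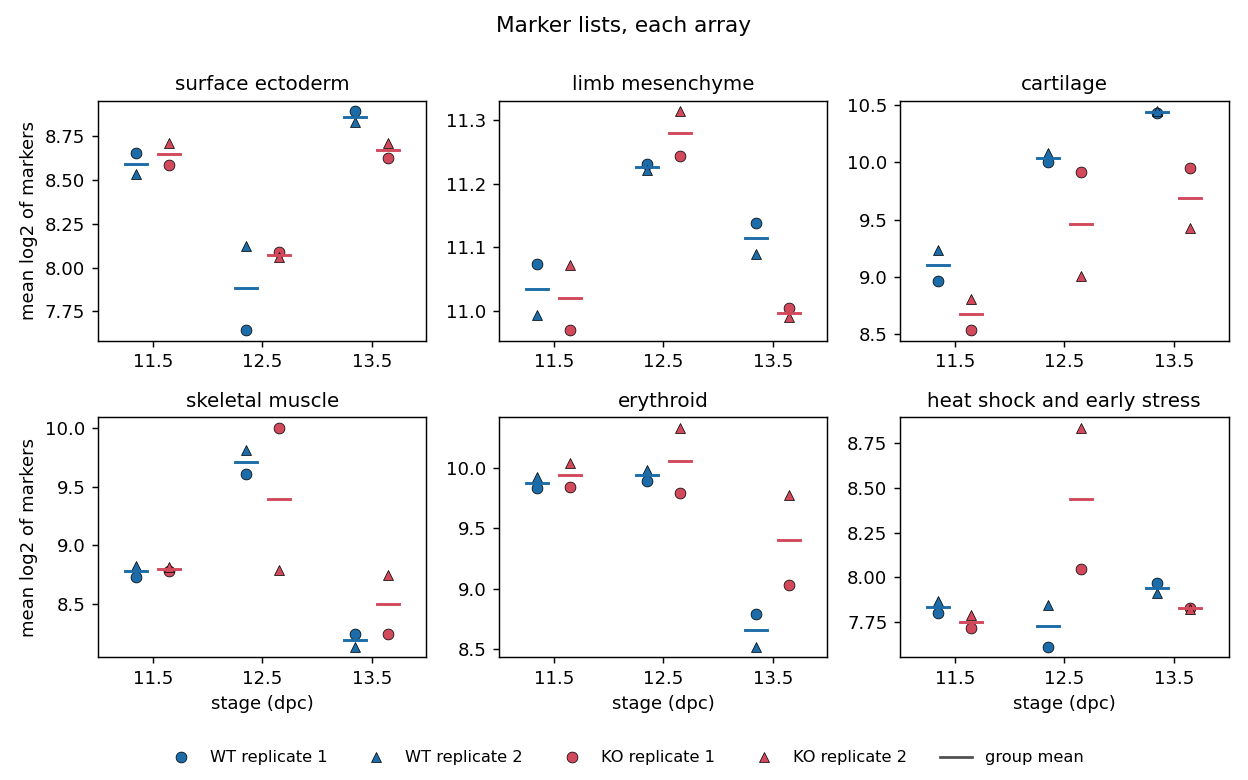
Mean log2 level of 6 marker lists in each array by stage, with circles for replicate 1, triangles for replicate 2 and lines for group means; each panel has its own vertical scale. The surface ectoderm list is lowest at 12.5 dpc, the cartilage list is lower in KO than in WT at 13.5 dpc, and the heat shock list reaches 8.83 in KO 12.5 dpc replicate 2.

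Pitx1, the hindlimb factor, was at 5.76 to 6.28 up to 12.5 dpc and at 9.88 to 10.30 in all 4 arrays of 13.5 dpc, beside a fall in the forelimb factor Tbx5, so that the share of hindlimb in the pools, the dissected part and the stage cannot be told apart for the changes after 12.5 dpc. Each stage contrast also rests on the brightest probe set. Of the members called in WT from 11.5 to 12.5 dpc, 12 had other probe sets, 26 in all, of which 17 had the same sign. Of the 26, 5 passed with the same sign and 2 with the opposite one. From 12.5 to 13.5 dpc in WT the other probe sets of the called members numbered 24, with 13 of the same sign, 5 past the threshold with it and 2 against it. In KO they were 23 with 16 of the same sign (6 past it and 2 against), and 20 with 14 (5 and 1). The probe sets of Spred2 disagreed, since another of its 5, at a mean level of 7.70, moved by 0.58 in WT over the earlier interval where the brightest one fell. The second brightest of Spred1, at a mean level of 10.05, moved by -0.32 there, where the brightest rose. The direction of change of both SPRED genes therefore depends on the probe set. A Spry4 set at a mean level of 6.26 moved by -0.52 in WT and -0.65 in KO over the later interval, past the threshold. The remaining dimmer sets of Spry4, at mean levels of 6.76 and 6.19, moved by 0.08 and 0.03 in WT there and did not pass. In KO they moved by 0.54, past the threshold, and 0.71, not past it. The other set of Fgfr3, at a mean level of 7.53, moved by 0.15 in WT and -0.47 in KO over the earlier interval, where the brightest rose in both.

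The rest of the pathway was read in 57 of 65 listed genes of the wider FGF cascade, comprising other ligands, heparan sulfate enzymes, adaptors, kinases and inhibitors. None passed for KO minus WT with limma, at any stage or averaged over them, and the medians were 4.1e-04, -0.0070, 0.05 and -0.03. Between stages 4 rose and 11 fell in WT over the earlier interval (7.02% and 19.3%, against 6.67% and 13.1% of all genes), with the largest changes in Sulf1, a heparan sulfate sulfatase (0.90), Spred3 (-0.83), the ERK phosphatase Dusp5 (-0.71) and Hs6st1, a heparan sulfate sulfotransferase (-0.70). Over the later interval 12 rose and 5 fell in WT (21.1% and 8.77%, against 14.5% and 10.8%), led by the intracellular homologue Fgf12 (1.99), Hs6st1 (1.03), the heparan sulfate proteoglycan Sdc4 (0.99) and the adaptor Gab1 (0.91). In KO 6 rose and 10 fell over the earlier interval (10.5% and 17.5%, against 6.22% and 10.6%), among them Sulf1 (1.02), the phosphatase Dusp4 (-0.83) and Spred3 (-0.81). Over the later one 9 rose and 5 fell (15.8% and 8.77%, against 10.4% and 8.22%), among them Fgf12 (1.20) and the exchange factor Sos2 (-0.77).

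Upstream and partner genes of the ridge were read in 34 of 36 listed genes, and none passed for KO minus WT at any stage or for the mean, with medians of 0.03, 0.01, 0.09 and 0.02. In WT 5 rose and 14 fell from 11.5 to 12.5 dpc (14.7% and 41.2%, against 6.67% and 13.1% of all genes), led by the proximal factors Meis1 (-1.96) and Meis2 (-1.78), the R-spondin Rspo2 made in the ridge (-1.95) and the posterior signal Shh (-1.41). From 12.5 to 13.5 dpc 10 rose and 7 fell (29.4% and 20.6%, against 14.5% and 10.8%), led by the hindlimb factor Tbx4 (2.09), Tbx5 (-1.49), Shh (-1.18) and Grem1, the BMP antagonist that links Shh to ridge FGFs (-1.10). In KO 6 rose and 11 fell over the earlier interval (17.6% and 32.4%, against 6.22% and 10.6%), with Meis1 at -1.73 and Bhlha9, a ridge helix-loop-helix factor, at -1.15, and 6 rose and 4 fell over the later one (17.6% and 11.8%, against 10.4% and 8.22%), with Lgr5, an R-spondin receptor, at -1.36.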

How the data were processed

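Pooled limb RNA was read on 12 Affymetrix arrays, 2 for each of 3 stages and 2 genotypes. The deposited log2 values of 45101 probe sets come from RMA, per the submitters' processing notes, which give no version of it. This method subtracts background, brings the arrays to a common distribution and combines the probes of a set, and it shrinks changes of dim sets. Control sets (64) were dropped. By the platform's annotation, 34945 sets had 1 gene, 932 several, and 9160 no name in the copy used here. The brightest set stood for each of 18193 genes.

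With limma 3.58.1 (R 4.3.3, lmFit and eBayes) the 6 group means were estimated from the 12 arrays together, leaving 6 residual degrees of freedom beside 4.22 from the prior. There were 11 contrasts: KO minus WT at each stage and averaged, the 3 differences of that effect, and consecutive stages within each genotype. The p-values, from two-sided tests, were adjusted by Benjamini and Hochberg's method over every gene and read at a threshold of 0.05. The code was tested on simulated data. The number of arrays limits the precision.

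The members and lists were chosen with earlier results of these data known. Values were to be given for each member past the threshold and for the 4 smallest p in each KO comparison, and up to 4 genes were to be named per wider list and stage change. Hspa1a, Pitx1 and Meis1 as checks were chosen after their values were seen. Alternatives varied the probe set per gene, filter, normalization, variance prior, array weights, arrays fitted, replicate block and each array left out. Markers of endothelium (8 of 8 measured), macrophages (6 of 6) and neurons and Schwann cells (6 of 8) had mean levels of 8.37 to 8.86, 6.99 to 7.34 and 6.46 to 6.99 over the 12 arrays.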

Additional observations from a re-analysis of the deposited data

How the results depend on the processing

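The members' counts past the threshold were recomputed under 21 alternatives (20 for the mean over the stages) with limma. For KO minus WT and its differences between stages they stayed 0 except when single arrays were left out, where they ranged from 0 to 4 for the mean, 0 to 3 at 12.5 dpc, 0 to 1 at 13.5 dpc and 0 to 1 for the difference between 12.5 and 13.5 dpc. For the stage changes, leaving out single arrays gave 6 to 18 calls in WT and 3 to 16 in KO over the earlier interval, and 4 to 14 in WT and 5 to 11 in KO over the later one. The mean of all probe sets of a gene gave 6 in WT over the later interval and 7 in KO over each interval. Fitting only the groups compared gave 0 in KO over both intervals, with 2 residual degrees of freedom. Array quality weights gave 2 in KO over the later interval, and leaving out both KO arrays that stood apart gave 19 in WT. Leaving out both KO arrays that stood apart turned the sign of 6, 0, 6 and 9 of the 32 KO minus WT differences (mean over the stages, then each stage), none of which passed, and moved the members' median at 13.5 dpc from 0.02 to -0.04. Among the members past the threshold in a stage comparison, or among the 4 with the smallest p in a KO comparison, the sign changed with the mean of probe sets alone: Spred2 was 0.054 and -0.040 over the 2 intervals in WT and 0.15 over the earlier one in KO, Il17rd 0.021 in KO over the later one, and the differences of the KO effect became -0.13 for Spry4 and -5.9e-04 for Il17rd (12.5 against 11.5 dpc) and 0.11 for Il17rd (13.5 against 12.5 dpc); the added probe sets move in the other direction. Deviations of same-numbered arrays correlated at 0.19, -0.12 and -0.09 at the 3 stages. Whether same-numbered pools were paired is not stated, and these values, from 1 gap between replicates per group, cannot settle it. With the replicate block 0 members passed in the 7 KO comparisons and 13 (WT) and 11 (KO) over the earlier and 11 and 9 over the later interval. Medians of the members moved by less than the spread between replicates. Spry4, Sp6 and Dlx3 (WT, earlier interval) and Fgfrl1 and Dlx3 (WT, later interval) passed under all 21 alternatives. Dim probe sets and 2 arrays per group limit what could be detected.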
